A study of Mus musculus with 5 samples.

Results

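The 41 genes described here encode the membrane glycoproteins of the lysosome, its cholesterol-transfer proteins and calcium channel, its glycosidases, sulfatases and lipid hydrolases, the subunits of the vacuolar proton pump (V-ATPase), and the transcription factors TFEB and TFE3. They were chosen by name from the known biology of the organelle. The rule uses no measured values, but earlier results of these data were known when the choice was made. All 41 were found among the 21154 gene symbols on the array. The arrays carry RNA from mouse peritoneal macrophages, in 3 wild-type samples (numbered 5, 11 and 14) and 2 samples of the line c-JunΔLysM (numbered 1 and 9), in which floxed alleles of Jun are removed by a Cre recombinase expressed from the lysozyme M gene. The genotype given for the deleted mice is cJunfl/fl LysMCre-/+, and the mice were 8 weeks old, of either sex, on a mixed 129/C57Bl6 background, with littermates as wild-type controls; it is not stated whether those littermates carry floxed alleles. The sample titles name LysM, whereas the source names of the same samples name c-JunΔMx; the genotype field also names LysM, and the samples are called c-Jun-deleted here. Lysozyme M is expressed in macrophages and neutrophils, so other cells of a peritoneal preparation keep Jun in such mice. Each sample was hybridised in 1 colour from 50 ng of total RNA.

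Lysosomes break down what a macrophage takes up and what autophagy delivers. Their lumen is kept acid by the V-ATPase, whose V1 sector hydrolyses ATP on the cytosolic side while its V0 sector passes protons across the membrane, and acidity is what activates the hydrolases inside. TFEB and TFE3 bind E-box elements in the promoters of many of these genes and raise them together, whereas Jun is a component of the AP-1 factors, which bind a different short element. A comparison of macrophages with and without Jun therefore shows whether the transcripts of this organelle differ between the genotypes.

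All 41 members were well above the array background on all 5 arrays, and none was saturated. Values below are log2 signal relative to the 75th percentile of the same array, and a difference is the c-Jun-deleted mean minus the wild-type mean of these values. Of the 41, 39 were tested. Gla and Psap were not, because their only probe carried an outlier flag on 1 wild-type array. No member reached an adjusted p below 0.05 in limma (0 of 39, against 0% of the 27979 genes tested, of which 14680 have a symbol and the rest are single unnamed probes), and the adjusted p ran from 0.357 to 0.993. At an unadjusted limma p below 0.05, 1 member was lower in the c-Jun-deleted samples, where 6.52% of all genes were, and 0 members were higher, where 5.61% of all genes were. An exact permutation test of 3 samples against 2 cannot give a p below 0.1, so single values have no test of that kind that could pass. The labels do not say whether each sample is 1 animal or a pool, so these p-values measure the spread between samples only.

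To show the promoter sequence around these genes, 300-base windows from 250 bases before to 50 bases after annotated starts were read from RefSeq (assembly GRCm38.p6). They held an entry for 36 of the 41 members, with 42 windows in all. Asah1, Npc1, Atp6v1b2, Atp6v1c1 and Atp6v1h had none. The E-box TCACGTG, which contains the core CACGTG that TFEB and TFE3 recognise, was searched on both strands. It occurred in 11 of the 42 member windows (26.2%) and in 3.77% of 32851 windows of the same length over all genes. CACGTG alone occurred in the same 11 member windows and in 7.15% of all windows, and the palindrome TCACGTGA in 5 member windows (11.9%) and 0.974% of all. The AP-1 element TGAGTCA occurred in 4 member windows (9.52%), those of Cd68, Glb1, Neu1 and Psap, and in 5.2% of all windows. The related TGACGTCA occurred in 1, that of Gusb (2.38%), and in 1.79% of all. A match is a description of the letters and not evidence of binding.

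The 250 bases upstream of Lamp1 and Mcoln1 are shown because they hold several copies of the E-box, that of Glb1 because its E-box and its AP-1 element share bases, that of Cd68 because it holds 2 AP-1 elements and no E-box, and that of Npc2 because it belongs to the member with the smallest p and holds neither. They read 5′ to 3′ on the strand of the gene, with TCACGTG and TGAGTCA in capitals on whichever strand they lie.
Lamp1, chr8:13158911-13159160, + strand: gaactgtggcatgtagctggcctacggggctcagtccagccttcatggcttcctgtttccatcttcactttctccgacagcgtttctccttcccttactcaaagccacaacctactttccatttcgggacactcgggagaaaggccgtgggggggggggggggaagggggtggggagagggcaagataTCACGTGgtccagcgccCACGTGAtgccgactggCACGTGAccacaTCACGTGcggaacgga
Mcoln1, chr8:3500269-3500518, + strand: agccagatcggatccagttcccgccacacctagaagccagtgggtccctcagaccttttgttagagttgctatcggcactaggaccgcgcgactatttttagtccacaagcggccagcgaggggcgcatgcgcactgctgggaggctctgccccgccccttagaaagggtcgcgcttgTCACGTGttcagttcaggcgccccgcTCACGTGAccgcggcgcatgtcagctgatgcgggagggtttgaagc
Glb1, chr9:114400828-114401077, + strand: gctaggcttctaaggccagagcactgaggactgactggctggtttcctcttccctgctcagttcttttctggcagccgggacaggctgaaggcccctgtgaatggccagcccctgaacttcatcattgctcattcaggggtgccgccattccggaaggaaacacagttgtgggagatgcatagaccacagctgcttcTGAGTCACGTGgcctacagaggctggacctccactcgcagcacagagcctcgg
Cd68, chr11:69666171-69666420, - strand: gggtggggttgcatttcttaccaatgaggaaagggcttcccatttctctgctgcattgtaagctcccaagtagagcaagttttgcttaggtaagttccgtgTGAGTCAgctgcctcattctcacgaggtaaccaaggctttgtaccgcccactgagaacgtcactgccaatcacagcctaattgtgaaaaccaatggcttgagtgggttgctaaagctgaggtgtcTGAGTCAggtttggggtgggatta
Npc2, chr12:84773113-84773362, - strand: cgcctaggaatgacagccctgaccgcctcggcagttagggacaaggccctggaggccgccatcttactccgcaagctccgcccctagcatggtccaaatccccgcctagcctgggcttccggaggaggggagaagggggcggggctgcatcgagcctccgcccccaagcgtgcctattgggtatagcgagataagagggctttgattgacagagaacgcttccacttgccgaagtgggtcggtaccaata

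The Lamp1 sequence holds the E-box at positions -62, -45, -28 and -16 relative to the annotated start. The other 8 members with a match are shown by the 27 bases around 1 copy, with TCACGTG in capitals, because they let the flanks of the same element be compared.
Arsa, chr15:89477425-89477451, - strand: caactcagtgTCACGTGttgtctgctc
Atp6v0b, chr4:117887350-117887376, - strand: tgcgcgggggTCACGTGgggtcggcgc
Atp6v0d1, chr8:105566052-105566078, - strand: cctactgcggTCACGTGagacgcggtg
Atp6v0e, chr17:26676388-26676414, + strand: agcgcgccgaTCACGTGagcctctgtt
Atp6v1a, chr16:44139375-44139401, - strand: tttttttaaaTCACGTGataggcttaa
Gaa, chr11:119267812-119267838, + strand: ttctgtgcgaTCACGTGtttgactctg
Gla, chrX:134601217-134601243, - strand: aagcgattgaTCACGTGagcatctacg
Naglu, chr11:101070010-101070036, + strand: aaccttcaggTCACGTGgcccgaggtc

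Among the 11 genes with the E-box, 10 were tested, of which 5 were higher and 5 lower in the c-Jun-deleted samples, with a median difference of -0.0032 and a range from -0.29 for Atp6v1a to 0.49 for Glb1. The 24 tested members with a window and no match had a median difference of -0.11. These signs depend on the scaling: under median centring of each array, Atp6v1a alone of the 10 was lower (-0.076). Of the 3 tested genes with TGAGTCA, Cd68 differed by 0.23, Glb1 by 0.49 and Neu1 by -0.22, on both sides of 0. Under median centring they stood at 0.44, 0.70 and -0.011, so Neu1 was then near 0.

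Before the members are taken up by role, the arrays need a short account. The scanner's 75th percentile ran from 437 to 596 intensity units, and between 52.2% and 59.9% of probes were well above background. Wild-type 5 and c-Jun-deleted 1 lay on 1 slide (slide 1) and the other 3 arrays on another (slide 2), so each slide holds both genotypes. Jun was at 3.21, 3.75 and 3.17 in the wild-type and at 2.76 and 2.71 in the c-Jun-deleted samples (difference -0.64 ± 0.23 SE, limma adjusted p = 0.391); whether its probe lies in the deleted part is not given in the sources used here. Lyz2, the gene that carries the Cre, was at 4.46 in c-Jun-deleted 1 and between 8.52 and 9.18 in the other 4 samples. All 8 macrophage markers on a fixed list were above background on every array, with a summed level relative to the 75th percentile of 1229 to 1655 in the wild-type and 951 to 1087 in the c-Jun-deleted samples. That list holds Lyz2 itself, and without it the sums of the other 7 markers, Cd68 among them, overlapped, at 795 to 1076 against 721 to 929. Of the 8, 4 lay wholly below the wild-type samples (Lyz2, Mertk, Csf1r and Fcgr1) and 2 wholly above (Cd68 and Itgam). Over all genes these shares were 20.2% and 13.3%. Cd14 and Adgre1 overlapped. The 11 large peritoneal macrophage markers summed to 154 to 312 against 357 to 452. Of these 11, 5 lay wholly above the wild-type samples, among them Itga6, the brightest by its mean. Gata6, Timd4, Prg4, F5, Selp and Garnl3 overlapped. Itga6 was at 6.44, 6.03 and 5.90 in the wild-type and at 7.16 and 7.55 in the c-Jun-deleted samples. The separation of the sums rests on it, since without Itga6 wild-type 5 stands above c-Jun-deleted 1. The 12 B cell markers summed to 51.7 to 99.6 against 336 to 491, with all 12 wholly above the wild-type samples. Pax5 was not above background in wild-type 14. The 10 T and NK cell markers summed to 15.4 to 41.1 against 52.0 to 69.6, and without Cd2 to 9.76 to 31.2 against 18.6 to 26.1, which overlap. The 10 mesothelial and stromal markers summed to 4.58 to 10.6 against 2.66 to 4.19, and all 9 of them that were tested were lower, 6 wholly below the wild-type samples. For erythroid cells, 8 of 9 markers were on the array, with sums of 0.589 to 1.42 against 10.7 to 23.0, and Alas2 was above background on none. The sums of the remaining lists overlapped. For small peritoneal macrophages, monocytes and dendritic cells they were 472 to 1062 against 549 to 668. There Mrc1, Retnla and Itgax lay wholly below the wild-type samples and Irf4 wholly above. Mast cell markers summed to 37.3 to 114 against 84.6 to 93.3, and neutrophil markers to 14.5 to 19.3 against 10.8 to 17.4. The part of these markers in the members' differences was not tested, and in such bulk samples fewer cells of a type and less RNA per cell cannot be told apart.

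**Figure D1:**
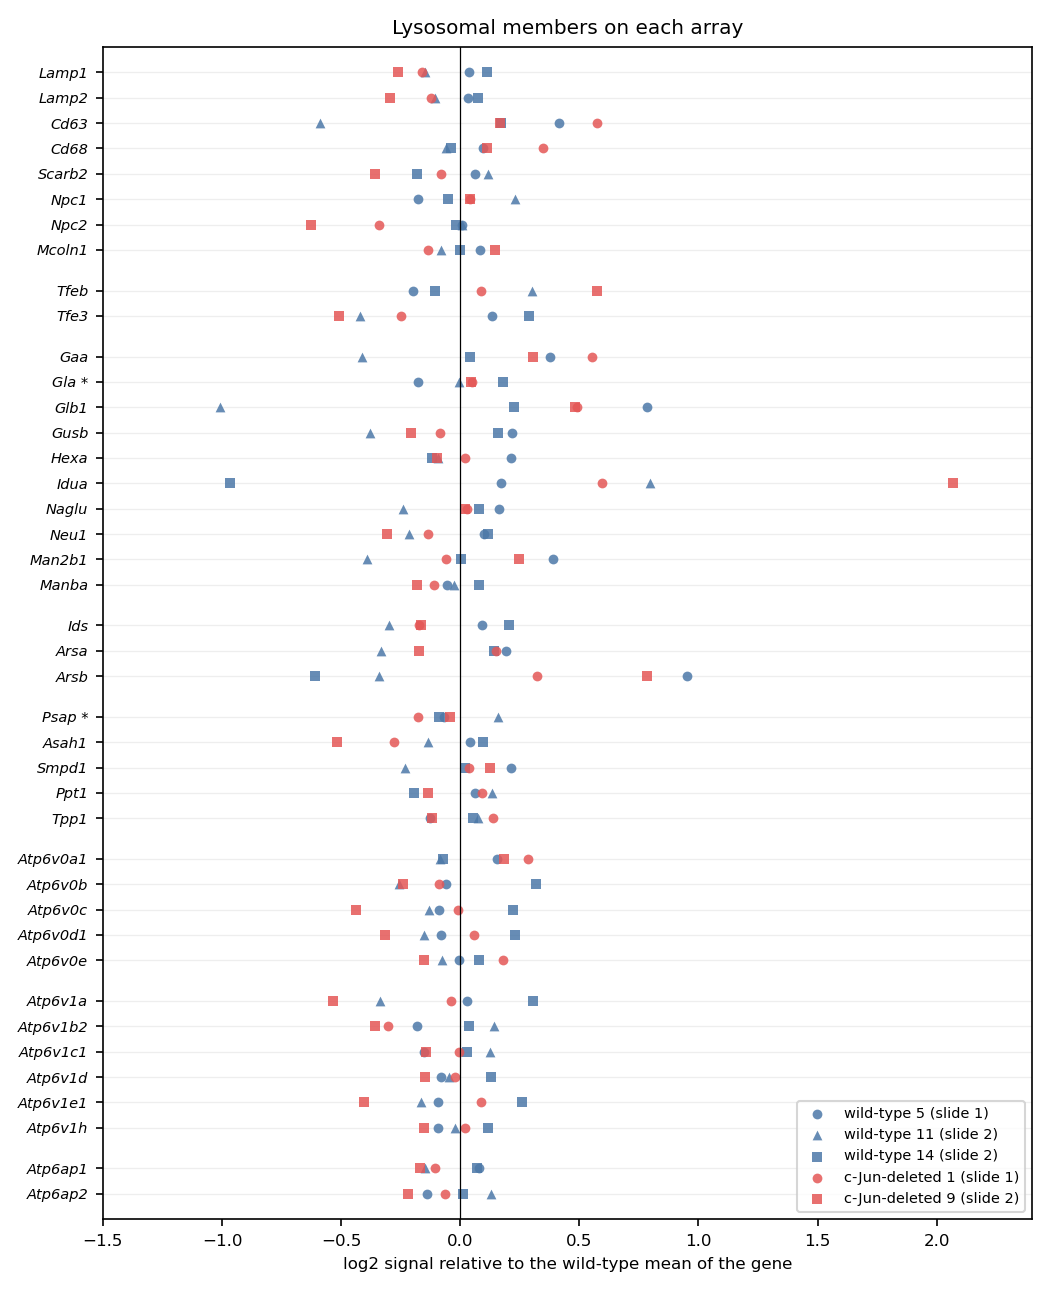
Level of each of the 41 members on each array, on the x axis as log2 signal minus the gene's own wild-type mean, with 1 row per gene grouped by role; blue points are wild-type 5, 11 and 14 and red points c-Jun-deleted 1 and 9, and an asterisk marks the 2 members that were not tested. In 31 of the 39 tested rows the red points lie neither wholly below nor wholly above the blue ones, as in 66.5% of all genes. In 13 both red points lie inside the blue range, as in 26.6% of all genes.

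Taken as a set, the members lay close to the wild-type level. The median difference of the 39 tested was -0.07, beside -0.09 over all genes tested, and it was above 0 under quantile normalization (0.013) and median centring of each array (0.14). 24 members were lower and 15 higher, that is 61.5% lower beside 61.4% of all genes, but 18 were lower and 21 higher under quantile normalization, and 8 lower and 31 higher under median centring. In 6 members both c-Jun-deleted samples lay below all 3 wild-type samples (15.4%, beside 20.2% of all genes), namely Lamp1, Lamp2, Npc2, Manba, Asah1 and Atp6v1b2. In 2 members both lay above, Cd68 and Atp6v0a1 (5.13%, beside 13.3% of all genes). These counts are below the shares over all genes. Under median centring 0 members lay wholly below and 8 above (5.67% and 23.9% of all genes). The counts also rest on the arrays included: the count below was 18 when c-Jun-deleted 1 was left out (36.0% of all genes) and 14 when wild-type 11 was (33.7%). The count above was 5 or 6 without any 1 array other than wild-type 14 (18.3% to 24.9% of all genes).

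The sizes were small for most members. In 37 of 39 (94.9%) the difference was under 0.5 in size, as in 72.6% of all genes, and only Idua exceeded 1, as did 11.3% of all genes. The 95% interval of limma lay inside -1 to 1, a doubling or halving, for 33 members (84.6%, beside 57.2% of all genes). For 33 members the range over the 3 wild-type samples was wider than the difference between genotypes (73.4% of all genes). The median standard error was 0.18, beside 0.22 over all genes. A p above the threshold does not show equal levels, and the intervals state what sizes these 5 arrays leave possible.

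**Figure D2:**
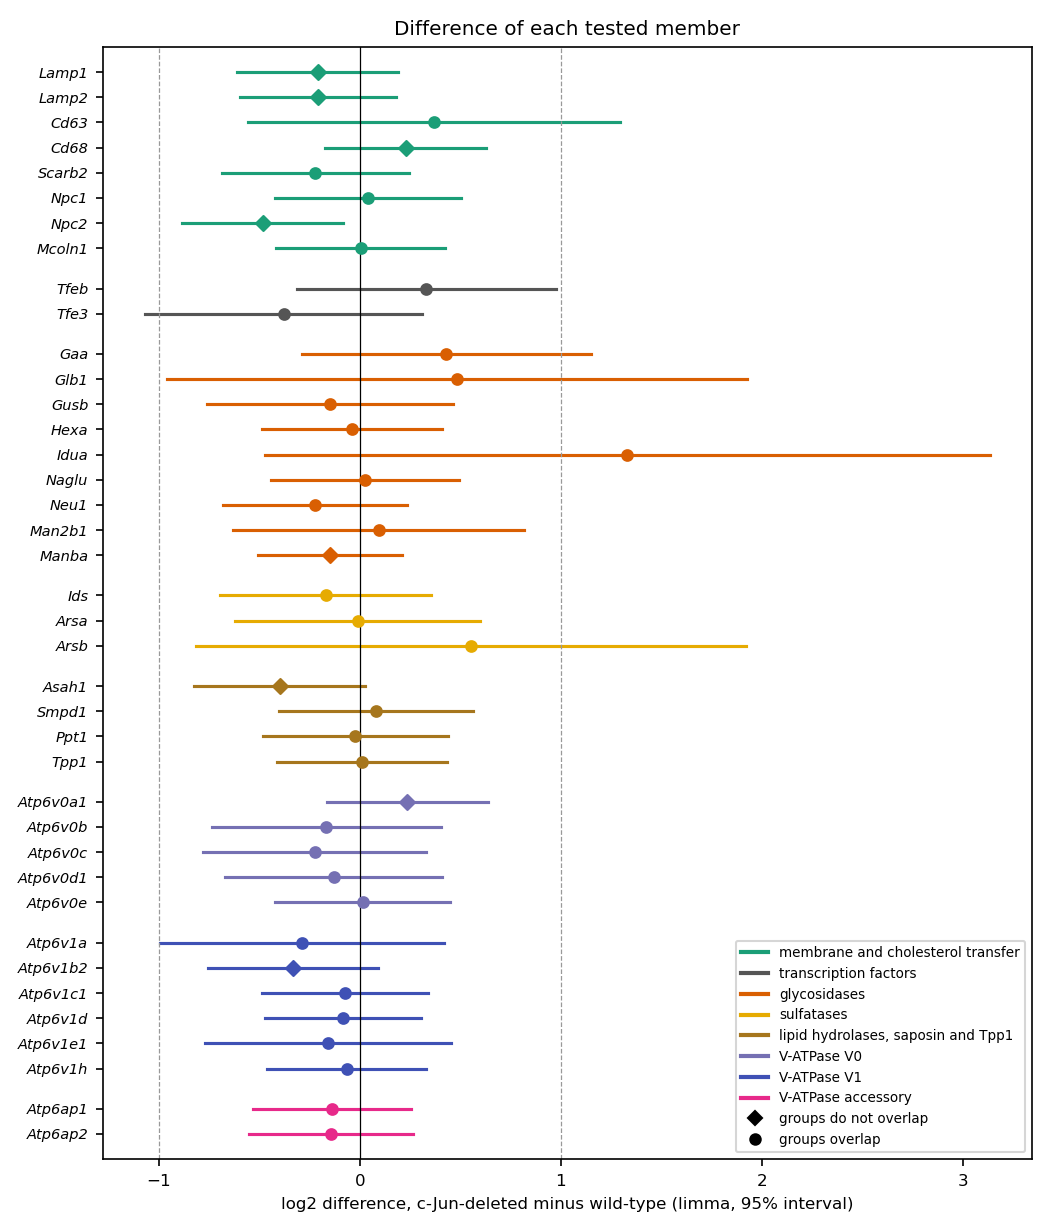
Difference between genotypes (c-Jun-deleted minus wild-type, log2, x axis) for the 39 tested members with its 95% interval from limma, 1 row per gene by role; diamonds mark the 8 members whose samples did not overlap, and dashed lines stand at -1 and 1. Of the 39 intervals, that of Npc2 alone leaves out 0, and that of Idua reaches farthest from it, to 3.14.

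Among the membrane and cholesterol-transfer proteins, 8 in all, 4 were lower, 4 higher, and 3 lay wholly below the wild-type samples (37.5%, beside 20.2% of all genes). Npc2, the soluble protein that takes cholesterol from lumenal membranes to Npc1, had the smallest p of all members. It was at 6.58, 6.58 and 6.55 in the wild-type samples and at 6.23 and 5.94 in the c-Jun-deleted ones. The wild-type samples were almost level and both c-Jun-deleted samples lay lower, c-Jun-deleted 9 most. The difference was -0.48 ± 0.15 (SE; 95% interval -0.88 to -0.08), 1.40-fold lower, with an unadjusted limma p of 0.0274 and an adjusted p of 0.357. It was -0.35 on slide 1, -0.62 on slide 2 and -0.50 with the slide as a block, but -0.32 under quantile normalization and -0.27 under median centring. Npc1, which receives the cholesterol and exports it from the lysosome, was at 0.04 (-0.42 to 0.50), so the difference seen in Npc2 had no counterpart of like size in Npc1; the difference between these differences was not tested.

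Lamp1 and Lamp2 are the glycoproteins that line the lysosomal membrane. Lamp1 was at 8.69, 8.50 and 8.76 in the wild-type and at 8.49 and 8.39 in the c-Jun-deleted samples, a difference of -0.21 ± 0.15 (SE, adjusted p = 0.593). The c-Jun-deleted samples lay lower, but the nearest pair was separated by less than the wild-type samples among themselves, and the difference was 0.025 under quantile normalization. Lamp2, which also serves chaperone-mediated autophagy, was at 6.02, 5.89 and 6.07 against 5.87 and 5.70, a difference of -0.21 ± 0.15 (SE, adjusted p = 0.585). A second probe, for another Lamp2 transcript, gave -0.17. Both Lamp genes differed by about the same amount, and under median centring both stood near 0 (0.00063 for Lamp1 and 0.0025 for Lamp2).

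Cd68, a Lamp-related glycoprotein of macrophage endosomes and lysosomes, was the membrane protein that lay wholly above. It was at 6.97, 6.82 and 6.84 in the wild-type and at 7.22 and 6.99 in the c-Jun-deleted samples, with a difference of 0.23 ± 0.15 (SE; -0.17 to 0.63, adjusted p = 0.568), which was 0.36 under quantile normalization and 0.44 under median centring. c-Jun-deleted 9 exceeded the highest wild-type sample only narrowly. Mcoln1, the calcium-permeable channel through which lysosomes signal to TFEB, was at 4.67, 4.51 and 4.59 against 4.45 and 4.74. Its 2 c-Jun-deleted samples lay on either side of the wild-type range, and the difference was 0.00 with an interval from -0.41 to 0.42. Cd63, a tetraspanin of late endosomes, differed by 0.37 (adjusted p = 0.681), with wild-type 11 at 6.49 and the other 4 samples from 7.24 to 7.65. Scarb2, which carries glucocerebrosidase to the lysosome, differed by -0.22 (adjusted p = 0.627).

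The transcription factors lay on either side of 0. Tfeb was at -0.27, 0.23 and -0.18 in the wild-type samples and at 0.02 and 0.50 in the c-Jun-deleted ones, a difference of 0.33 ± 0.25 (SE; -0.31 to 0.98, adjusted p = 0.601). Tfe3 was at 5.33, 4.78 and 5.48 against 4.95 and 4.69, a difference of -0.38 ± 0.27 (SE; -1.07 to 0.31, adjusted p = 0.578), and its second probe gave -0.30. In both genes the samples of the genotypes overlapped, with wild-type 11 nearest to the c-Jun-deleted samples. Both kept their sign within each slide, at 0.28 and 0.48 for Tfeb and at -0.38 and -0.44 for Tfe3.

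Of the 10 glycosidases, which remove sugars from glycoproteins, glycolipids and glycosaminoglycans, 9 were tested: 5 were higher and 4 lower, with a median difference of 0.02. Idua, the iduronidase of heparan and dermatan sulfate breakdown, had the greatest difference of all members. It was at 2.21, 2.83 and 1.07 in the wild-type and at 2.63 and 4.10 in the c-Jun-deleted samples. Only c-Jun-deleted 9 stood above the wild-type samples, while c-Jun-deleted 1 lay among them. The difference was 1.33 ± 0.69 (SE; -0.47 to 3.14, adjusted p = 0.486). Leaving out c-Jun-deleted 9 gave 0.60 and leaving out c-Jun-deleted 1 gave 2.07. A second probe for the same transcript stood at 1.93, 2.57 and 2.32 against 2.39 and 2.49, a difference of 0.17, so the 2 probes give unlike values for wild-type 14 and c-Jun-deleted 9, and their mean differed by 0.75.

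Gaa, the acid glucosidase that degrades glycogen, was at 5.84, 5.06 and 5.51 in the wild-type and at 6.02 and 5.77 in the c-Jun-deleted samples. Its difference of 0.43 ± 0.28 (SE, adjusted p = 0.555) was matched by 0.42 on its second probe. One wild-type sample, number 5, lay between the c-Jun-deleted samples. Neu1, the sialidase, was at 5.58, 5.26 and 5.59 against 5.34 and 5.17, a difference of -0.22 ± 0.18 (SE, adjusted p = 0.621). Manba, the mannosidase that cleaves the last disaccharides of N-glycans, lay wholly below at 3.15, 3.17 and 3.28 against 3.09 and 3.02, a difference of -0.15 ± 0.14 (SE, adjusted p = 0.671), which was 0.063 under median centring. The separation in Manba was narrow, and its full values are given because of it, chosen after they were seen.

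Glb1, the galactosidase used as a marker of senescent cells, is set out because 1 array decides its difference, a choice also made after its values were seen. It was at 4.74, 2.95 and 4.18 in the wild-type samples and at 4.44 in both c-Jun-deleted samples. Wild-type 11 stood far below the other samples, and the difference of 0.49 ± 0.55 (SE, adjusted p = 0.733) became -0.02 without it. The slides disagreed in sign, at -0.29 and 0.87. Wild-type 11 was the lowest of the 5 samples in 5 of the 9 tested glycosidases (55.6%, beside 21.2% of all genes), and over these genes its median deviation from the 5-array mean was -0.25, against 0.20 for wild-type 5.

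The other glycosidases differed by 0.15 or less. Gusb, the glucuronidase, differed by -0.15, Hexa, the alpha subunit of hexosaminidase, by -0.04, Naglu, which trims heparan sulfate, by 0.02, and Man2b1, the major lysosomal mannosidase, by 0.09. Gusb had 1 spot flagged on c-Jun-deleted 9. Gla, the galactosidase whose loss causes Fabry disease, was at 7.70 (flagged), 7.88 and 8.06 against 7.93 and 7.93, and with the flagged spot kept the difference was 0.05 (-0.39 to 0.48).

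The 3 sulfatases, which remove sulfate from glycosaminoglycans and sulfatide, overlapped between genotypes throughout. Ids, the iduronate sulfatase, was at 2.21, 1.81 and 2.32 in the wild-type and at 1.94 and 1.95 in the c-Jun-deleted samples (difference -0.17 ± 0.20 SE, adjusted p = 0.744). Arsa, which acts on sulfatide, was at 4.29, 3.77 and 4.24 against 4.25 and 3.93 (difference -0.01 ± 0.23 SE, adjusted p = 0.988). In both genes wild-type 11 was the lowest sample. Arsb, which acts on dermatan and chondroitin sulfate, was dim, at -2.94, -4.23 and -4.50 against -3.57 and -3.11. Its difference was 0.55 ± 0.53 (SE; -0.82 to 1.92, adjusted p = 0.679), with opposite signs on the slides (-0.63 and 1.26), and its second probe put wild-type 5 below wild-type 11 where the first put it above.

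**Figure D3:**
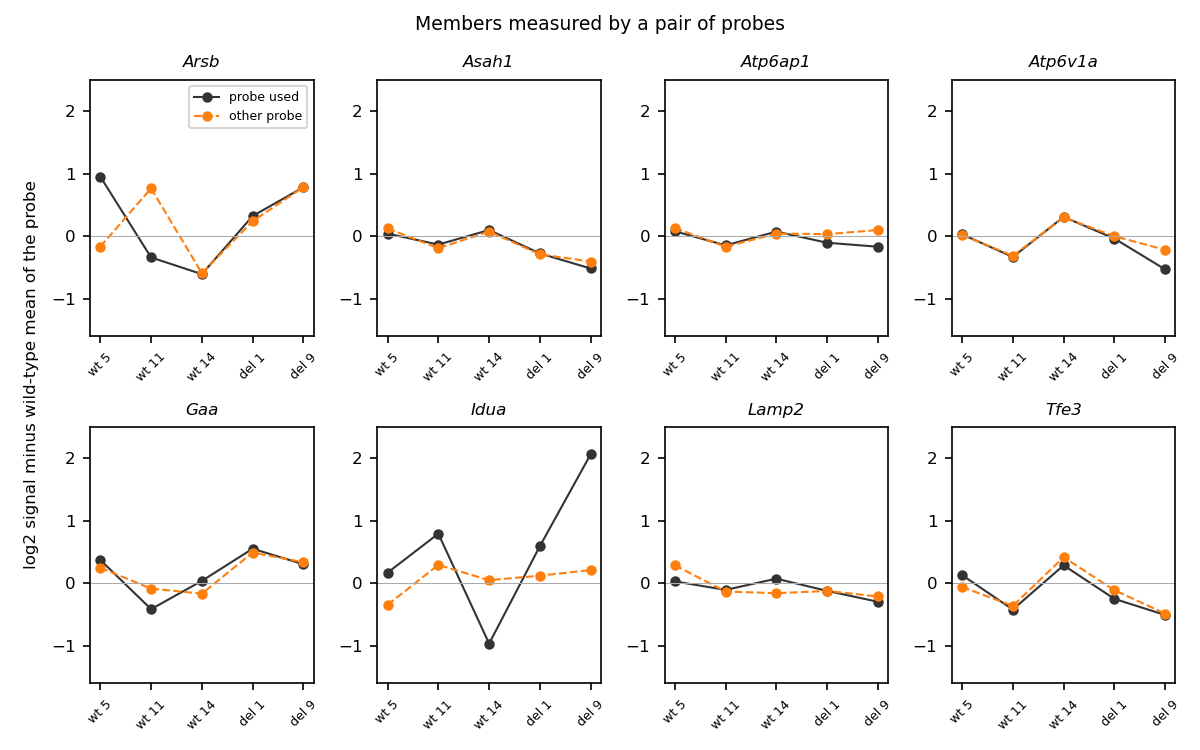
Levels on the 5 arrays (x axis, wild-type then c-Jun-deleted) of the 8 members with a pair of probes, as log2 signal minus the wild-type mean of the same probe (y axis); the solid line is the probe used and the dashed line the other. The lines lie close together for Asah1 and Tfe3, part for Idua in wild-type 14 and c-Jun-deleted 9 and for Arsb in wild-type 5 and 11, and part in sign for Atp6ap1, whose differences were -0.14 and 0.06.

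Of the 5 proteins that act on lipids and proteins in the lumen, Asah1 lay apart from the rest. Asah1, the acid ceramidase, was at 4.25, 4.07 and 4.30 in the wild-type samples and at 3.93 and 3.69 in the c-Jun-deleted ones. Both c-Jun-deleted samples lay below all wild-type samples, and the second probe gave -0.35 where the first gave -0.40 ± 0.16 (SE; -0.82 to 0.03), a fold of 1.32. The unadjusted limma p was 0.0607 and the adjusted p 0.424. The difference had the same sign on both slides, at -0.32 and -0.50, and it was -0.19 under median centring, where the samples overlapped.

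The remaining proteins of that group lay near 0. Smpd1, the acid sphingomyelinase that makes ceramide, was at 4.01, 3.57 and 3.82 against 3.84 and 3.93, a difference of 0.08 (adjusted p = 0.878). Ppt1, which removes palmitate from proteins, was at 1.67, 1.74 and 1.41 against 1.70 and 1.47, a difference of -0.02 (adjusted p = 0.968). Both overlapped widely. Tpp1, a tripeptidyl peptidase, differed by 0.01 (-0.41 to 0.44). Psap, the precursor of the saposins that present lipids to their hydrolases, was at 7.28, 7.51 (flagged) and 7.26 against 7.17 and 7.31, and with the flagged spot kept its difference was -0.11 (-0.52 to 0.30).

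The V-ATPase was represented by 13 genes, of which 11 were lower and 2 higher, with a median difference of -0.14, but under median centring 3 were lower and 10 higher (median 0.07). Set against the median of all genes, which median centring shifts from -0.09 to 0.12, 8 of the 13 were lower. The median of all 13 lay 0.05 below that of all genes. The difference farthest from 0 was -0.33, for Atp6v1b2, and all 13 intervals lay inside -1 to 1.

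In the proton-conducting V0 sector, Atp6v0a1, an isoform of the subunit that lines the proton path, lay wholly above the wild-type samples, at 4.40 and 4.30 against 4.27, 4.03 and 4.04, a difference of 0.24 ± 0.15 (SE, adjusted p = 0.559), which was 0.45 under median centring. Atp6v0c, the proteolipid of the rotor ring, was at 6.96, 6.92 and 7.27 in the wild-type and at 7.04 and 6.61 in the c-Jun-deleted samples, a difference of -0.22 ± 0.21 (SE, adjusted p = 0.680). Here the c-Jun-deleted samples parted, 1 inside the wild-type range and 9 below it. Atp6v0b, another ring subunit, was at 4.85, 4.65 and 5.22 against 4.82 and 4.66 (difference -0.17, adjusted p = 0.770). Atp6v0d1, which links the ring to the V1 stalk, differed by -0.13, and Atp6v0e by 0.01.

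All 6 genes of the ATP-hydrolysing V1 sector were lower, with a median of -0.12, and under median centring Atp6v1a and Atp6v1b2 alone of the 6 were lower. Atp6v1b2, the non-catalytic subunit of the ATPase head found in macrophages and many other cells, was at 1.64, 1.96 and 1.85 in the wild-type samples and at 1.51 and 1.46 in the c-Jun-deleted ones. These did not overlap, and the difference was -0.33 ± 0.16 (SE; -0.75 to 0.09), a fold of 1.26. The unadjusted limma p was 0.0982 and the adjusted p 0.468, and under median centring the difference was -0.12 and the samples overlapped. Atp6v1a, the catalytic subunit, was at 4.86, 4.50 and 5.14 against 4.80 and 4.30, a difference of -0.29 ± 0.27 (SE, adjusted p = 0.677), and -0.11 on its second probe. Atp6v1e1, a subunit of the peripheral stalk, was at 5.06, 4.99 and 5.41 against 5.24 and 4.75 (difference -0.16, adjusted p = 0.799). In both, c-Jun-deleted 9 was the lowest sample and c-Jun-deleted 1 lay among the wild-type samples. Atp6v1c1 differed by -0.07, Atp6v1d by -0.08 and Atp6v1h by -0.06.

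The accessory proteins assist the assembly of the pump, and Atp6ap2 is also the prorenin receptor. Atp6ap1 was at 4.43, 4.20 and 4.42 against 4.24 and 4.18, a difference of -0.14 ± 0.15 (SE, adjusted p = 0.719), and its second probe gave 0.06, the single pair among the 8 members with 2 probes that differed in sign. Atp6ap2 was at 3.59, 3.86 and 3.74 against 3.66 and 3.51, a difference of -0.14 ± 0.16 (SE, adjusted p = 0.724). Wild-type and c-Jun-deleted samples overlapped in both.

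The 2 c-Jun-deleted arrays differed from each other over the V-ATPase genes. c-Jun-deleted 9 was the lowest of the 5 samples in 10 of the 13 genes (76.9%, beside 28.5% of all genes), and wild-type 14 the highest in 7 (53.8%, beside 27.8% of all genes). Over the 13 genes the median deviation from the 5-array mean was -0.16 for c-Jun-deleted 9 and 0.16 for wild-type 14, with the other 3 arrays from -0.08 to 0.05. c-Jun-deleted 1 thus lay within the wild-type arrays and c-Jun-deleted 9 below them. On slide 1, c-Jun-deleted 1 exceeded wild-type 5 in 9 of 13 genes (median 0.08), and on slide 2, c-Jun-deleted 9 lay below the mean of wild-type 11 and 14 in 12 of 13 (median -0.27). Without c-Jun-deleted 9, 8 of 13 were lower, with a median of -0.0099.

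**Figure D4:**
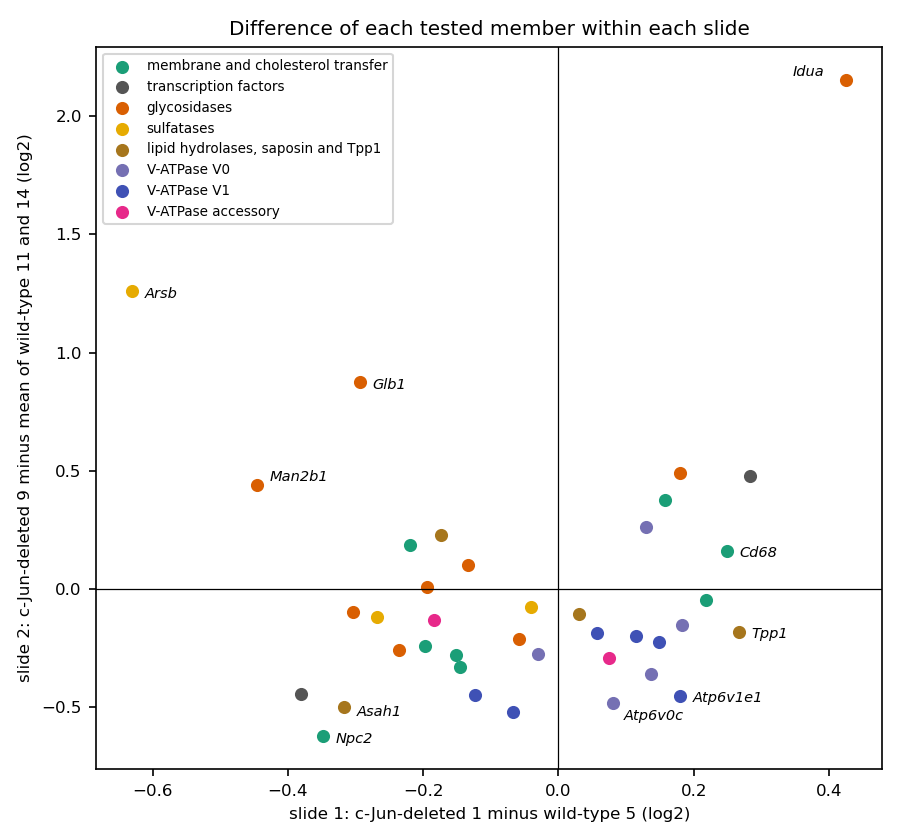
Difference between genotypes on slide 1 (x axis, c-Jun-deleted 1 minus wild-type 5, log2) and on slide 2 (y axis, c-Jun-deleted 9 minus the mean of wild-type 11 and 14, log2), with 1 point per tested member coloured by role. Of the 39 points 21 have the same sign on both axes, and the V-ATPase points gather right of 0 on slide 1 and below 0 on slide 2.

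The sign of each difference was also compared between the slides. Of the 39 members, 15 were lower on both slides (38.5%, beside 40.7% of all genes) and 6 higher on both (15.4%, beside 22.9% of all genes). The 6 members that lay wholly below the wild-type samples were lower on both slides, from -0.06 for Manba to -0.35 for Npc2 on slide 1, and from -0.21 for Manba to -0.62 for Npc2 on slide 2. Cd68 was higher on both, at 0.25 and 0.16, as was Atp6v0a1, at 0.13 and 0.26.

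Other genes of the organelle, taken from lists drawn up by function, gave 0 adjusted p below 0.05 in limma as well. Their counts stand on the scale of the 75th percentile. Median centring adds 0.21 to each difference, and under it the medians of all 7 lists were above 0, from 0.02 to 0.27. Of 19 other hydrolases, 9 were higher and 10 lower (median -0.02), with 1 higher and 2 lower at an unadjusted p below 0.05. Fuca1, the fucosidase, was at 5.21, 5.40 and 5.36 in the wild-type and 4.59 and 4.44 in the c-Jun-deleted samples (-0.81 ± 0.15 SE, adjusted p = 0.228), and Gm2a, the activator that presents ganglioside to hexosaminidase, differed by -0.55. Hgsnat, an acetyltransferase of heparan sulfate breakdown, differed by 0.76.

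Of 18 tested genes for other membrane proteins and transporters, 13 were lower and 5 higher (median -0.19). Slc15a3, a peptide and histidine transporter, differed by -0.77 and Litaf by -0.38, whereas Laptm5 differed by 0.59 and Slc17a5, the sialic acid exporter, by 1.36. In Slc17a5 the samples overlapped, at 1.83, 2.47 and 0.52 against 2.19 and 3.75. This is the order of samples on the probe used for Idua, but not on its second probe, where wild-type 5 was lowest and wild-type 11 highest. Of 9 other V-ATPase subunits tested, 7 were lower and 2 higher (median -0.12), with Atp6v1g1 at 0.12 and Atp6v0d2 at 0.17. The 2 with the smallest p among the lower ones were dim: Atp6v1b1 was well above background in 2 wild-type samples and in no c-Jun-deleted sample, and Atp6v1e2 in 3 wild-type samples and 1 c-Jun-deleted sample.

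Among 14 genes for the sorting and modification of hydrolases, 9 were lower and 5 higher (median -0.11). Gga2, an adaptor that loads mannose 6-phosphate receptors at the Golgi, was at 1.68, 1.74 and 1.47 in the wild-type and at 2.65 and 2.99 in the c-Jun-deleted samples (1.19 ± 0.18 SE, adjusted p = 0.219). Gnptg, a subunit of the enzyme that makes the mannose 6-phosphate tag, differed by 0.58, M6pr, a receptor for the tag, by -0.40 and Sumf1, which activates sulfatases, by -0.32. Gga2 stood clear of the wild-type samples on both c-Jun-deleted arrays, yet its adjusted p did not pass.

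Of 22 tested genes in the control of mTORC1 and TFEB, 15 were lower and 7 higher (median -0.08). Ppp3ca, the calcineurin subunit that dephosphorylates TFEB, differed by 0.46, Tsc1 by 0.32, Fnip2 by -0.42 and Mitf by -0.28. Of 25 autophagy genes, 21 were lower and 4 higher (median -0.18), and 12 lay wholly below the wild-type samples, where 20.2% of all genes did. Under median centring 9 were lower and 16 higher (median 0.03), and 0 lay wholly below, where 5.67% of all genes did. Ulk1, the kinase that starts autophagy, differed by -0.62 (adjusted p = 0.374) and Atg5 by -0.61, while Plekhm1 differed by 0.33 and Gabarapl2 by 0.03. Of 11 tested cathepsins, 6 were higher and 5 lower (median 0.06), with Ctsd at 0.50, Ctso at 0.35, Ctss at -0.25 and Ctsl at -0.54.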

How the data were processed

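Each array is a 1-colour Agilent hybridisation, and the authors deposited its scanner output as intensity (processed green signal, Feature Extraction 11.5.1.1, per the file headers). Its log2 was taken minus the array's 75th percentile. Control spots and outlier-flagged spots were left out, spots of a probe averaged, probes kept when well above background on at least 2 of 5 arrays, and the brightest probe used per gene. limma 3.58.1 in R 4.3.3 fitted both genotypes, with Benjamini-Hochberg adjustment over 27979 genes at 0.05. It was tested on simulated data. The deposited table of log2 values holds 1709 probes and no member, so it was not used. Alternatives were normexp (offset 50, on the median signal, since the mean signal was not used here), quantile normalization, median centring, other filters, the mean over probes, the slide as a block, each slide alone, array weights and leaving out each array. Members with full values were up to 3 per role with the smallest p and 8 fixed genes, besides Manba, Glb1 and Gla, chosen after their values were seen; of other lists, up to 2 per direction, with 1 such gene not reported here. The members and lists were chosen with earlier results of these data known. The number of arrays limits the precision.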

Additional observations from a re-analysis of the deposited data

How the results depend on the processing

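No member had an adjusted limma p below 0.05 under any alternative run (0 in each), and the lowest over all 585 fitted values was 0.223. The median difference of -0.07 turned to 0.013 under quantile normalization and to 0.14 under median centring, which moved the median of all genes from -0.09 to -0.0099 and 0.12, and without each array in turn it ran from -0.15 to -0.0038. Among single genes, Lamp1 turned to 0.025 and 0.00063 under these settings, and under median centring Lamp2 to 0.0025 and Manba to 0.063; 16 of 39 members changed sign there. Under median centring 0 members lay wholly below the wild-type samples and 8 above (5.67% and 23.9% of all genes). On slide 2 alone the counts were 20 and 10 (39.7% and 30.7% of all genes). Without each array in turn they were 7 to 18 below and 2 to 6 above, beside 25.4% to 36.0% and 16.1% to 24.9% of all genes. Such counts have no meaning for the block, the weights or slide 1 alone, and the deposited table gave no value. 178 of all genes passed under median centring and 1 with array weights. No paired analysis was possible because the groups share no replicate number in their titles; the slide block groups arrays, not pairs.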

Other observations

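The labels do not give the sex of each sample, and 6 members lie on the X chromosome (Lamp2, Tfe3, Gla, Ids, Atp6ap1 and Atp6ap2). Xist, the transcript of the inactive X chromosome, stood at -4.53 in wild-type 11 and between -0.04 and 0.74 in the other 4 samples, and Eif2s3y, a gene of the Y chromosome, was above background in wild-type 11 alone, at 3.27. Ddx3y and Kdm5d, also of the Y chromosome, were above background there alone, and Uty in wild-type 11 and 14. Wild-type 11 alone thus has the pattern of a male sample, and sex is not balanced between the genotypes. These transcripts were looked at after the members' values were seen. Wild-type 11 was the lowest of the 3 wild-type samples in 4 of the 6 members on the X chromosome and in 20 of the other 35. The share over all genes was not counted. The part of sex in the members' values was not tested.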
